A study of Homo sapiens with 16 samples.

Results

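Plexins and neuropilins are the receptors through which semaphorins steer axons and migrating cells. The 10 genes described here are 8 plexins (PLXNA1, PLXNA2, PLXNA3, PLXNA4, PLXNB1, PLXNB2, PLXNC1 and PLXND1) and both neuropilins (NRP1 and NRP2). They were taken by symbol from a table of 58787 Ensembl genes, and each symbol matched 1 row. The family was selected on a measured value, the low PLXNA4 level after transfection with 1 siRNA, si45. The PLXNA4 values that involve si45 or the control are therefore given as a description, with no test. The other 9 genes were taken as its relatives. All 10 passed the filter on low counts.

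RNA was profiled in IMR32, a human neuroblastoma cell line with amplified MYCN, which the labels describe as neuroblasts. 4 groups of 4 biological replicates were sequenced, 16 libraries in all. The control group received a non-targeting siRNA, siNTC. The other groups received 1 of 3 siRNAs against TPX2 (si45, si46 or si47), and the column names of the count table carry 48 h. TPX2 encodes a spindle protein that activates the mitotic kinase AURKA. All groups are 1 cell line after siRNA transfection, so each comparison is between siRNAs, and no untransfected cells were analysed here.

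A plexin is a membrane protein that binds semaphorins outside the cell and carries a GTPase-activating domain inside it. Binding changes the signalling of small GTPases and, through effectors such as the collapsin response mediator proteins and the MICAL oxidases, the growth cone's actin and microtubules. Most secreted class 3 semaphorins bind a neuropilin, which has a short cytoplasmic tail and works with a class A plexin as the signalling partner. Neuropilins also bind vascular endothelial growth factors. These receptors guide sympathetic axons and neural crest cells, the lineage from which neuroblastoma arises.

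The library kit reads transcripts near their polyadenylated 3′ end. Levels are given in CPM, the count of a gene divided by the library's total after TMM scaling and multiplied by 1000000, and they are not divided by transcript length. In these bulk samples fewer cells that express a gene and less RNA per cell cannot be told apart. Library totals ran from 5318159 to 7864343 counts, and the 10 receptors together held 2170 to 3600 counts per library. The knockdown was present in all 12 libraries that received a TPX2 siRNA. TPX2 stood at 297 to 359 CPM in siNTC, against 79.4 to 121, 62.2 to 93.8 and 68.7 to 76.3 CPM for si45, si46 and si47 (two-sided exact permutation p = 0.0286 for each, the smallest that 4 against 4 libraries allow). Adrenergic neuroblastoma genes were expressed, among them GATA3 at 1025 to 1382 CPM and HAND2 at 676 to 889 CPM, while others of that list of 12 were low (GATA2 at 21.6 to 36.6 CPM, TH at 1.49 to 5.03 CPM and TFAP2B at 1 to 12 counts). The mesenchymal factor PRRX1 had at most 1 count, and the Schwann cell factor SOX10 and the endothelial gene CLDN5 had 0 counts in every library. The summed adrenergic markers moved with the groups, from 5744 to 6124 CPM in siNTC to 6150 to 6690, 6387 to 6925 and 6570 to 7035 CPM under si45, si46 and si47. Of 11 tested adrenergic markers 3 were higher and 1 was lower in the mean of the 3 siRNAs (3.61% and 3.53% of all genes). The summed mesenchymal markers were at 478 to 533 CPM in siNTC and, without overlap, at 540 to 616 CPM for si45, while si46 and si47 overlapped the controls (491 to 597 and 479.7 to 571 CPM). Of 6 tested mesenchymal markers 0 were called in the mean of the 3 siRNAs and 0 under each siRNA. The part of either sum in the receptor results was not tested.

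PLXNA2, PLXNB2, PLXND1 and NRP2 are the relatives whose level changed over the 3 siRNAs, and promoter sequence is shown for these and for PLXNA4 because they carry the findings below. The windows are RefSeq promoters on GRCh38.p14, 250 bases before to 50 bases after an annotated start, and 9 of the 10 genes had at least 1. The starts used for PLXNA4, PLXNB2, PLXND1 and NRP2 lie inside the GENCODE span of the gene. The stretches below are 30 bases on the gene's own strand, and capitals mark a GC box (GGGCGG, or CCGCCC where it lies on the opposite strand). The copy marked is the one nearest to the start among those whose 30-base stretch lies wholly upstream of it. PLXNA4 has no GC box in its window, so the 30 bases just before its start are shown without capitals.
PLXNA2, chr1:208244414-208244443, minus strand: cggccccagcccGGGCGGacgcggccggcg
PLXNB2, chr22:50301678-50301707, minus strand: gaagggggctgtGGGCGGgggctggtcttg
PLXND1, chr3:129606715-129606744, minus strand: cgcggcccgggcCCGCCCcccgcctcccgc
NRP2, chr2:205682388-205682417, plus strand: ggaacacagaagGGGCGGgccctgagccgg
PLXNA4, chr7:132576471-132576500, minus strand: gcgagaggcagcggcataggctccatctgc
These copies end 42, 21, 51 and 96 bases before the start in PLXNA2, PLXNB2, PLXND1 and NRP2. The 9 genes had 11 windows in all. A GC box on either strand was found in 10 of these 11 (8 of the 9 genes), against 44.9% of 34796 promoter windows of the same length. The GC content was 64.3% in the PLXNA4 window and 70.3%, 66.7%, 87.3% and 70% in those of PLXNA2, PLXNB2, PLXND1 and NRP2, where the median of all windows was 58.7%. The E-box CACGTG, which MYC and MAX proteins bind, was in 0 of the 11 windows and in 7.20% of all windows. The cell cycle element TTTGAA was in 1 of the 11, that of PLXNA1, and in 15.2% of all windows. These are matches of letters and not measured binding.

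PLXNA4 is a class A plexin that signals for class 3 semaphorins with neuropilins and can bind class 6 semaphorins directly. The gene (ENSG00000221866) spans chromosome 7 from 132123332 to 132648688 on the minus strand of GRCh38 (GENCODE v29). Its counts were 30, 29, 28 and 13 in the siNTC libraries and 3, 5, 6 and 4 under si45. They were 29, 12, 11 and 19 under si46 and 15, 8, 23 and 13 under si47. All 4 si45 libraries lay below the other 12, since the highest si45 level was 1.04 CPM and the lowest elsewhere was 1.45 CPM. For 2.95% of all genes tested the 4 si45 libraries were below all controls, and the share below the other 12 was not counted. This low si45 level is the value on which the family was selected. The si46 and si47 libraries overlapped siNTC, where replicate 4 at 2.26 CPM was the lowest of its group.

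The mean PLXNA4 level was 4.22 ± 1.35 CPM (SD, n = 4) in siNTC and 0.757 ± 0.235 CPM in si45. It was 2.81 ± 0.928 CPM in si46 and 2.47 ± 1.01 CPM in si47. The order from high to low was thus siNTC, si46, si47 and si45, and neighbours in that order overlapped except si47 and si45. The summed si45 counts, 18 against 100 in siNTC, gave 17.7% of the control after library scaling. The same sums gave 68.1% for si46 and 58.9% for si47. No interval is given for these shares, since the selection of PLXNA4 rested on the si45 and control values. The fitted log2 fold changes were -2.46, -0.58 and -0.77 under si45, si46 and si47, and at 3 to 6 counts a library the first depends on the prior count of the fit. Between siRNAs, PLXNA4 was 1.88 higher in si46 and 1.69 higher in si47 than in si45 on the log2 scale, again without a test. The comparison of si47 with si46 does not involve si45 and was tested: the difference was -0.19 (95% interval -1.06 to 0.68; edgeR quasi-likelihood test, adjusted p = 0.968). That interval leaves room for changes of over 1.5-fold in either direction, so a difference was not detectable at this depth.

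**Figure D1:**
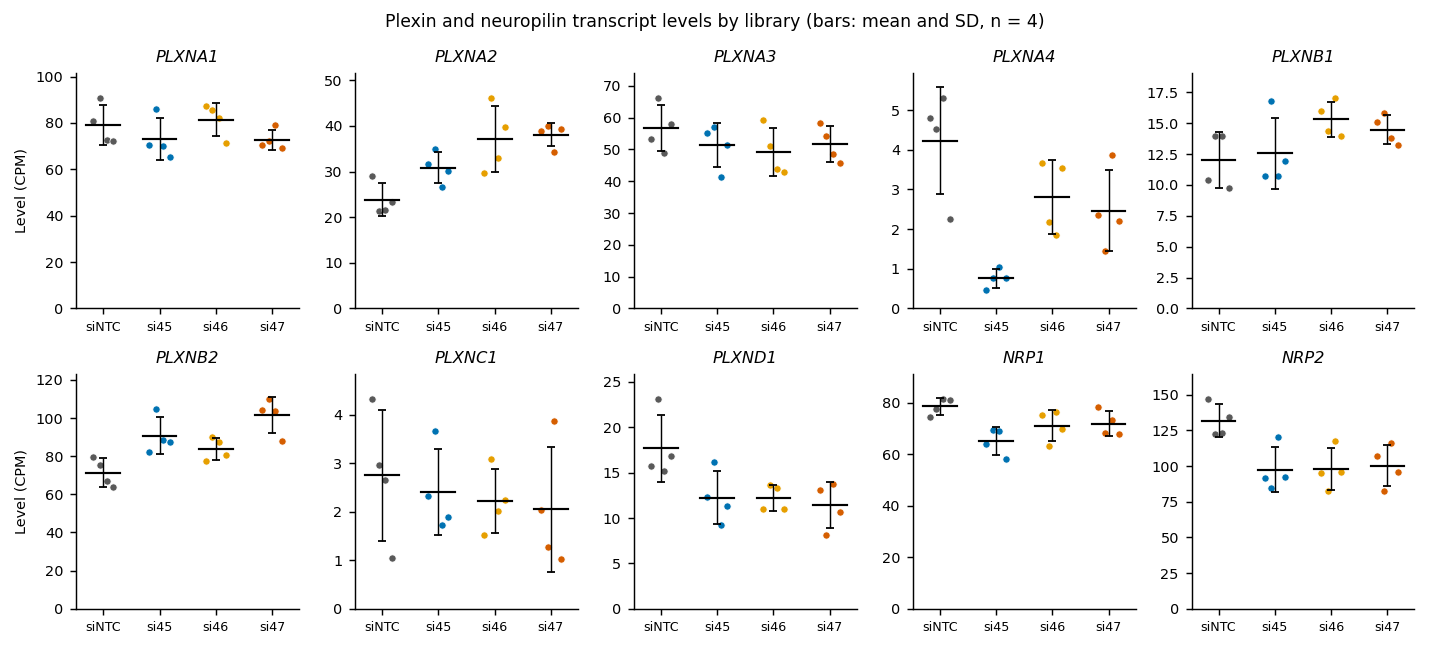
Level in CPM (y axis, linear from 0) of the 10 receptor genes in the 4 groups (x axis); each point is 1 library, and bars show the mean and SD of 4 libraries. The si45 libraries of PLXNA4, on whose low level the family was selected, sit at 0.466 to 1.04 CPM, below every other library. NRP2 is below all controls and PLXNA2 and PLXNB2 mostly above them under each TPX2 siRNA.

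Calls among the 9 relatives were then counted. At an edgeR adjusted p under 0.05, 1 of 9 was called under si45, a fall (NRP2), where 1.34% of all 14193 genes tested were called (1.01% higher and 0.324% lower). The 190 genes behind that share were 119 without siNTC replicate 2, 97 without si45 replicate 1 and 406 without si45 replicate 3. Under si46 2 of 9 were called, PLXNA2 higher and NRP2 lower, against 3.4% of all genes (2.14% higher and 1.25% lower). Under si47 4 of 9 were called, PLXNA2 and PLXNB2 higher and NRP2 and PLXND1 lower, against 9.74% of all genes (4.91% higher and 4.83% lower). In the mean of the 3 siRNAs against siNTC 4 of 9 were called, 2 higher and 2 lower, against 7.14% of all genes (3.61% higher and 3.53% lower). The calls therefore went both ways within the family. The median log2 fold change of the 9 in that contrast was -0.16, and that of all genes tested was -0.0011. The 3 comparisons with siNTC share the same 4 control libraries, so their values are not independent of each other.

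**Figure D2:**
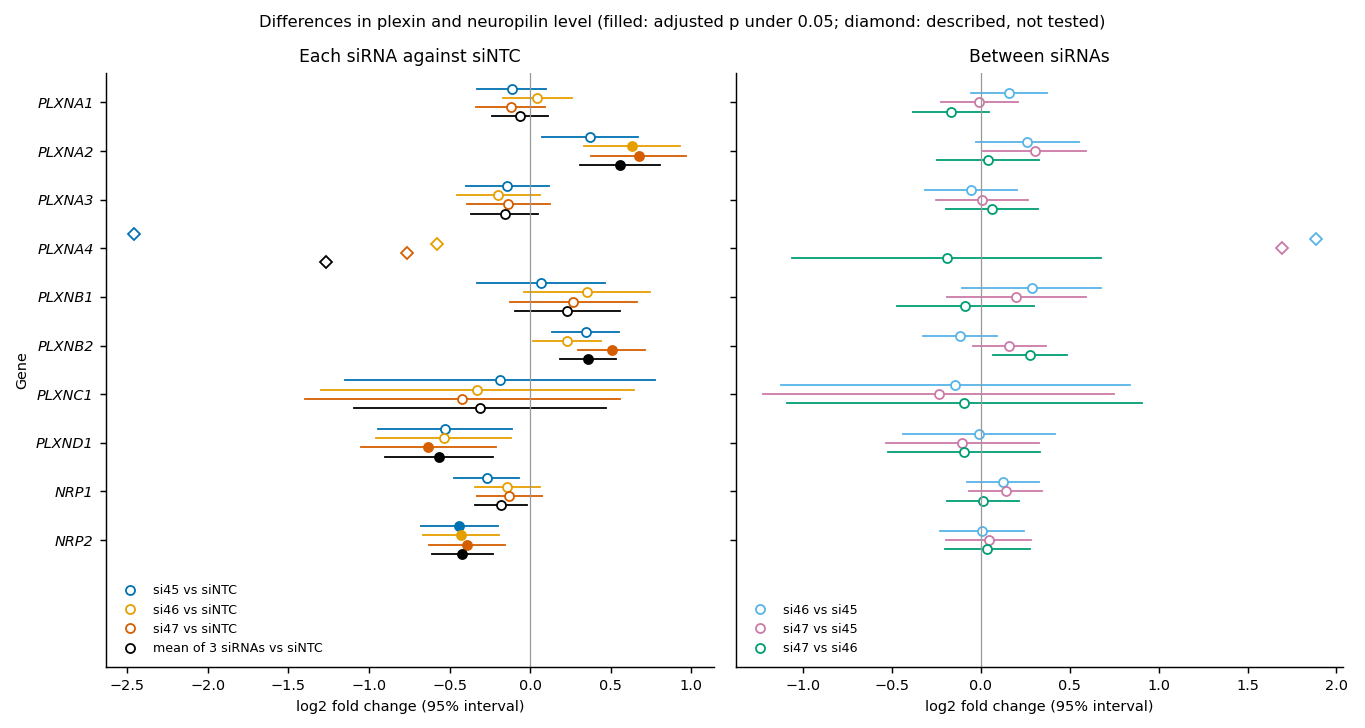
Log2 fold changes (x axis) of the 10 genes (y axis) for each siRNA and the mean of 3 siRNAs against siNTC (left) and between siRNAs (right), with 95% intervals; filled circles passed an adjusted p under 0.05 and diamonds mark PLXNA4 values that were not tested. PLXNA2 and PLXNB2 lie to the right of 0 and PLXND1 and NRP2 to the left under all 3 siRNAs, and every tested difference between siRNAs has an open circle.

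Among class A plexins, PLXNA2 rose. It encodes a receptor for class 3 semaphorins with neuropilins and for SEMA6A, and lies on chromosome 1 from 208022242 to 208244320, minus strand (ENSG00000076356). Its level was 29.02, 21.4, 21.6 and 23.4 CPM in siNTC and 31.7, 34.9, 26.7 and 30.1 CPM in si45. It was 29.8, 46.01, 33.0 and 39.9 CPM in si46 and 39.0, 39.9, 34.3 and 39.3 CPM in si47. In 11 of 12 knockdown libraries it was above all controls, the exception being si45 replicate 3. All 4 libraries lay above all controls under si46 and si47, as did 5.06% and 7.41% of all genes. It rose on the log2 scale by 0.63 (SE 0.145, edgeR adjusted p = 0.0088) under si46 and by 0.67 (SE 0.145, edgeR adjusted p = 0.0020) under si47. The si45 value of 0.37 did not pass (95% interval 0.07 to 0.67; edgeR adjusted p = 0.282). Averaged over the 3 siRNAs PLXNA2 was 1.47-fold higher (log2 0.56, SE 0.122, edgeR adjusted p = 0.0029). Without si46 replicate 2, its highest library, the si46 value was 0.51 and its adjusted p 0.0745.

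PLXNA1, the plexin partner of neuropilins in SEMA3A signalling, passed no test. Control libraries averaged 79.0 ± 8.71 CPM (SD, n = 4), and the si45, si46 and si47 libraries 73.0 ± 9.06, 81.5 ± 7.08 and 72.7 ± 4.35 CPM. Over the 3 siRNAs the log2 fold change was -0.06 (95% interval -0.24 to 0.11; edgeR adjusted p = 0.735). PLXNA3, which serves SEMA3F signalling with NRP2, was at 56.6 ± 7.28 CPM in siNTC and 51.3 ± 7.02, 49.3 ± 7.57 and 51.6 ± 5.56 CPM in the same order. The value over the 3 siRNAs, -0.16 on the log2 scale (95% interval -0.37 to 0.05), did not pass (edgeR adjusted p = 0.414). The last bases of PLXNA3 overlap LAGE3 on the opposite strand, which had 263 to 507 counts per library, and strand use in the counting is not given in the sources used here.

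The count of PLXNA2 relative to PLXNA1 within a library does not depend on how libraries are scaled. That ratio was 0.237 to 0.358 in siNTC, 0.381 to 0.461 in si45, 0.342 to 0.559 in si46 and 0.434 to 0.567 in si47. The si45 and si47 ranges lay above the control range, and the si46 range overlapped it. These ratios were chosen after the values were seen and have no test, and a difference in response between class A receptors was not tested.

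Class B plexins bind class 4 semaphorins and can couple to guanine nucleotide exchange factors and to the MET and ERBB2 receptors. PLXNB2 (chromosome 22, 50274979 to 50307627, minus strand; ENSG00000196576), the SEMA4C receptor, was at 79.7, 75.4, 66.8 and 63.8 CPM in siNTC. It was at 82.4, 105, 88.4 and 87.2 CPM in si45, at 77.2, 90.2, 87.2 and 80.7 CPM in si46 and at 104, 110.1, 103 and 88.2 CPM in si47. Under si45 and si47 all libraries lay above all controls, as for 3.36% and 7.41% of all genes, and under si46 replicate 1 fell within the control range. PLXNB2 rose under si47 by 0.51 on the log2 scale (SE 0.103, edgeR adjusted p = 0.0010). The si45 and si46 values of 0.34 (SE 0.103, edgeR adjusted p = 0.0954) and 0.23 (SE 0.103, edgeR adjusted p = 0.279) did not pass. With the replicate number as a block the si45 value passed (0.34, edgeR adjusted p = 0.0170). Averaged over the siRNAs it was 1.28-fold higher (log2 0.36, SE 0.0856, edgeR adjusted p = 0.0066). Without siNTC replicate 4, its lowest control, that value was 0.31 with an adjusted p of 0.0570.

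PLXNB1, the SEMA4D receptor, averaged 12.01 ± 2.26 CPM in the controls. Knockdown groups averaged 12.5 ± 2.901, 15.3 ± 1.41 and 14.5 ± 1.18 CPM under si45, si46 and si47. The value over the 3 siRNAs, 0.23 on the log2 scale (95% interval -0.10 to 0.56), did not pass (edgeR adjusted p = 0.452). PLXNB3, the plexin outside the list of 10, had 1 count in 1 library and 0 in the other 15, too few to test.

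PLXND1, the SEMA3E receptor, is known for its part in vascular patterning and for signalling without a neuropilin (chromosome 3, 129555175 to 129606818, minus strand; ENSG00000004399). It was at 15.7, 23.1, 15.1 and 16.8 CPM in siNTC, against 12.3, 16.2, 9.19 and 11.3 CPM for si45. It was at 11.01, 13.6, 13.3 and 10.99 CPM in si46 and at 13.0, 8.16, 13.8 and 10.7 CPM in si47. In 11 of 12 knockdown libraries PLXND1 was below all controls, the exception being si45 replicate 2. All si46 and si47 libraries were below all controls, as for 4.67% and 6.98% of all genes. The fall passed the test under si47 (log2 -0.63, SE 0.207, edgeR adjusted p = 0.0470). The si45 and si46 values of -0.53 and -0.54 did not (edgeR adjusted p = 0.272 and 0.172). The mean of the 3 siRNAs was 0.676 of control (log2 -0.57, SE 0.164, edgeR adjusted p = 0.0279).

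The PLXND1 calls were close to the threshold. Without siNTC replicate 2, its highest library, the mean value was -0.40 with an adjusted p of 0.222, and without siNTC replicate 4 the adjusted p was 0.0615. The si47 call was lost on leaving out any 1 of 11 libraries (adjusted p 0.0508 to 0.209): siNTC replicate 1, 2 or 4, si45 replicate 1 or 4, si46 replicate 1, 3 or 4, or si47 replicate 1, 2 or 4. It was also lost with no filter on low counts (0.0546), with at least 10 counts in every library (0.0504) and in a fit of only the groups compared (0.0540).

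PLXNC1, the SEMA7A receptor, had 6 to 27 counts per library. Its level was 2.75 ± 1.35 CPM in siNTC and 2.41 ± 0.879, 2.22 ± 0.656 and 2.05 ± 1.29 CPM in si45, si46 and si47. The mean log2 fold change was -0.31 (95% interval -1.09 to 0.47; edgeR adjusted p = 0.710). With an interval this wide, a change of the size seen for PLXND1 was not detectable. PLXNC1 also overlaps the end of CEP83 on the opposite strand, which had 222 to 454 counts per library.

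Of the neuropilins NRP2 fell under each siRNA, and NRP1 did not pass the test. NRP2 binds SEMA3F and vascular endothelial growth factor C (chromosome 2, 205681990 to 205798133, plus strand; ENSG00000118257). It was at 147, 123, 123 and 134 CPM in siNTC, against 91.9, 84.7, 120.3 and 92.5 CPM for si45. It was at 95.2, 82.2, 118 and 95.9 CPM in si46 and at 107, 82.7, 116 and 95.7 CPM in si47. All 12 knockdown libraries were below all 4 controls, as for 1.03% of all genes tested. The log2 fold changes of NRP2 were -0.44, -0.43 and -0.39 for si45, si46 and si47, each with an SE of 0.116 (edgeR adjusted p = 0.0478, 0.0299 and 0.0254). The mean of the 3 siRNAs was 0.747 of control (log2 -0.42, SE 0.0926, edgeR adjusted p = 0.0033). That call held without any 1 library, with values between -0.46 and -0.36.

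The calls for NRP2 under single siRNAs were less stable. The si45 call was lost without any 1 of 11 libraries (adjusted p 0.0573 to 0.235), all but si45 replicate 3, si46 replicates 2 and 3 and si47 replicates 2 and 3. It was also lost with RLE size factors (0.0528), with limma-voom (0.0585) and with at least 10 counts required in every library (0.0663). The si46 call was lost without siNTC replicate 1 or 4 or si46 replicate 1, 2 or 4 (0.0812 to 0.143). The si47 call was lost without siNTC replicate 1 or 4 or si47 replicate 2 or 4 (0.0683 to 0.117).

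NRP1, which binds SEMA3A and vascular endothelial growth factor A, was at 74.6, 77.4, 81.5 and 81.0 CPM in siNTC. It was at 63.8, 69.6, 69.2 and 58.1 CPM in si45, at 75.1, 63.3, 76.4 and 69.7 CPM in si46 and at 78.3, 68.0, 73.1 and 67.9 CPM in si47. The 4 si45 libraries were below all controls, as for 2.95% of all genes, and the si46 and si47 libraries overlapped them. The log2 fold changes of -0.27, -0.14 and -0.13 did not pass (edgeR adjusted p = 0.238, 0.554 and 0.465). The mean of the 3 siRNAs was -0.18 (95% interval -0.34 to -0.02; edgeR adjusted p = 0.186). The NRP2 to NRP1 count ratio was 1.51 to 1.97 in siNTC and overlapped it in each knockdown group (1.22 to 1.74, 1.27 to 1.54 and 1.22 to 1.59), so an unequal change of the neuropilins was not shown.

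The replicates numbered 3 stood out for NRP2. That library was the highest of its group under si45, si46 and si47 alike (120.3, 118 and 116 CPM). TPX2 was likewise highest in replicate 3 of each of these groups (121, 93.8 and 76.3 CPM). In siNTC replicate 3 was not the highest for either gene (123 CPM for NRP2 and 297 CPM for TPX2). The part of the depth of TPX2 knockdown in the NRP2 level was not tested.

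The difference between siRNAs was then tested directly for the relatives. At an edgeR adjusted p under 0.05, 0 of 9 were called between si46 and si45, where 0.0282% of all genes were (0.0141% higher and 0.0141% lower in si46). Between si47 and si45 0 of 9 were called, against 0.169% of all genes (0.0705% higher and 0.0986% lower in si47). Between si47 and si46 0 of 10 were called, PLXNA4 included, against 0.0493% of all genes (0.0211% higher and 0.0282% lower in si47). DESeq2 and limma-voom also called 0 in each. PLXNA2 differed by 0.30 on the log2 scale for si47 against si45 (95% interval 0.01 to 0.59, edgeR adjusted p = 0.449). PLXNB2 differed by 0.28 for si47 against si46 (95% interval 0.07 to 0.48, edgeR adjusted p = 0.525). Neither passed, and the intervals are not adjusted for the number of genes tested. For NRP2 the intervals of the difference were -0.23 to 0.24, -0.19 to 0.28 and -0.20 to 0.28 for si46 against si45, si47 against si45 and si47 against si46. For PLXND1 they were wider, between -0.53 and 0.42 over the 3 pairs.

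Other parts of the semaphorin pathway were read from lists of ligands, partners and effectors. Of 20 semaphorin genes 18 were expressed enough to test, and in the mean of the 3 siRNAs 0 were higher and 1 was lower (3.61% and 3.53% of all genes). The median log2 fold change of the 18 was -0.06. The lower one was SEMA5A, a transmembrane semaphorin that binds PLXNA1 and PLXNA3. SEMA5A was at 69.1, 48.02, 58.2 and 52.0 CPM in siNTC, against 34.9, 17.2, 38.1 and 21.7 CPM for si47, with si45 and si46 in between (33.8 to 49.9 and 31.5 to 50.6 CPM). It fell by 0.63 (SE 0.167, edgeR adjusted p = 0.0277) in the mean contrast. That call was lost without siNTC replicate 1, 3 or 4 (adjusted p 0.0556 to 0.126). Of single siRNAs only si47 passed for SEMA5A (edgeR adjusted p = 0.0048).

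Of 17 co-receptors and other partners 11 were tested, with 1 higher and 0 lower (3.61% and 3.53% of all genes) and a median of -0.04. The higher one was PGF, placental growth factor, a ligand of FLT1 and the neuropilins. PGF was at 24.9 to 42.7 CPM in siNTC and at 52.1 to 74.7, 69.6 to 95.9 and 69.3 to 75.7 CPM for si45, si46 and si47, so that every knockdown library (12 of 12) exceeded all controls, as for 1.49% of all genes. The 3 siRNAs together gave 2.13-fold more PGF than siNTC (log2 1.09, SE 0.129, edgeR adjusted p = 1.5e-06), and passed under each siRNA.

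Of 32 cytoplasmic effectors 30 were tested, with 1 higher and 2 lower (3.61% and 3.53% of all genes) and a median of -0.06. DPYSL5, a collapsin response mediator protein, was at 52.5 ± 9.63 CPM in siNTC and 47.5 ± 3.73, 35.4 ± 1.43 and 38.6 ± 6.98 CPM under si45, si46 and si47, and fell by 0.38 (SE 0.106, edgeR adjusted p = 0.0201) in the mean contrast. ARHGAP35, a GTPase-activating protein, fell by 0.26 (SE 0.0773, edgeR adjusted p = 0.0334) in the mean contrast. All its si46 and si47 libraries lay under every control, as for 4.67% and 6.98% of all genes, and its si45 libraries overlapped the controls. RND1, a small GTPase that binds plexins, was the one counted as higher, with 0 to 3 counts per siNTC library and 1 to 11, 1 to 19 and 3 to 30 counts under si45, si46 and si47. It passed the filter on low counts through knockdown libraries alone, so its call supports nothing and neither a fold nor a p is given. The DPYSL5 call was lost without siNTC replicate 1 or 4 (adjusted p 0.0651 to 0.212). The ARHGAP35 call was lost without siNTC replicate 1, 2 or 4, si45 replicate 4 or si46 replicate 4 (adjusted p 0.0512 to 0.157), and with no filter on low counts (0.0518). Of single siRNAs only si47 passed for ARHGAP35 (edgeR adjusted p = 0.37, 0.31 and 0.012 for si45, si46 and si47). The RND1 call was lost without siNTC replicate 1, 2 or 3 and with limma-voom.

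Guidance genes outside the semaphorin system were counted in the same way. Of 24 ROBO, netrin and EPH type receptors 14 were tested, with 0 higher and 1 lower (3.61% and 3.53% of all genes) and a median of -0.03. The lower one was ROBO1, a SLIT receptor, which fell by 0.26 (SE 0.0802, edgeR adjusted p = 0.0378), a call lost without any 1 of 8 libraries: siNTC replicates 2, 3 and 4, si45 replicates 1, 2 and 4, si46 replicate 2 or si47 replicate 2 (adjusted p 0.0522 to 0.283). It was also lost with no filter on low counts (0.0692). Among single siRNAs ROBO1 passed under si46 alone (edgeR adjusted p = 0.0394). Of 19 ligands 16 were tested, with 0 higher and 2 lower (3.61% and 3.53% of all genes) and a median of 0.01. EFNA5 and EFNA2, membrane-anchored ligands of EPHA receptors, fell by 0.33 (SE 0.0765, edgeR adjusted p = 0.0048) and 0.43 (SE 0.108, edgeR adjusted p = 0.0106). EFNA5 lost its call without siNTC replicate 2 (adjusted p 0.0797) and EFNA2 without siNTC replicate 2 or 4 (0.0511 and 0.0553). Among single siRNAs EFNA5 and EFNA2 passed under si47 alone (edgeR adjusted p = 0.0051 and 0.0021). Over the 5 lists 8 of 89 tested genes were called, 2 higher (RND1 included) and 6 lower, where 7.14% of all genes were called, so the share lies near that of all genes. The count was 4 without siNTC replicate 1, 3 without siNTC replicate 2 and 3 without siNTC replicate 4. With the replicate block it was 12 (5 higher and 7 lower), with CRMP1, RRAS, SEMA3D and UNC5B added. SEMA3D had at most 4 counts in any siNTC library. Like RND1 it passed the filter on low counts through knockdown libraries alone, so its call supports nothing.

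**Figure D3:**
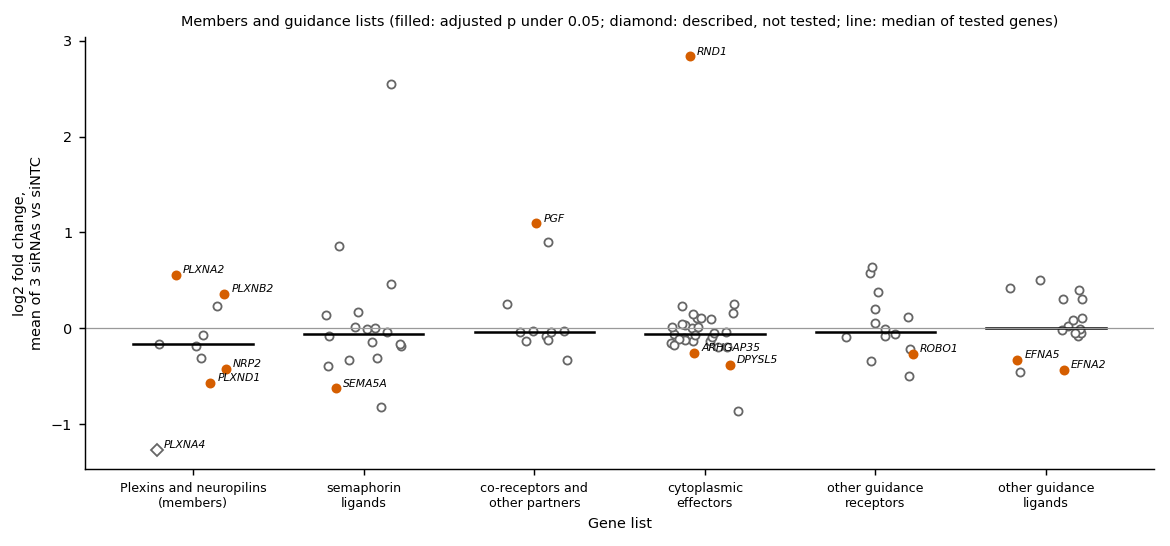
Log2 fold change of the mean of 3 siRNAs against siNTC (y axis) for each tested gene of the family and of the 5 guidance lists (x axis); filled points passed an adjusted p under 0.05, lines are medians of tested genes, and the PLXNA4 diamond was not tested. The list medians lie between -0.06 and 0.01, and the RND1 point rests on 0 to 3 counts per control library.

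PLXNA4 was last compared with all genes that had a mean count of at least 20 (11779 genes). Likeness was the root mean square difference between profiles of log2(CPM + 1) over the 16 libraries, each centred on its siNTC mean. The nearest 5 genes were MRC2, GYG2, TMEM65, CGNL1 and SUSD2, at 0.505, 0.507, 0.517, 0.518 and 0.519. The median over all genes was 0.930, and a flat profile was 0.908 from PLXNA4, so the nearest genes were closer but not close. Part of each distance is counting error, since PLXNA4 had 3 to 30 counts per library. MRC2 was at 7.89 ± 1.49 CPM in siNTC and 3.81 ± 0.763, 5.20 ± 0.938 and 3.59 ± 1.89 CPM under si45, si46 and si47. GYG2 was at 17.8 ± 1.13 CPM in siNTC and 9.76 ± 1.58, 15.4 ± 2.04 and 12.1 ± 1.79 CPM, the same order of groups as PLXNA4. TMEM65, CGNL1 and SUSD2 had mean si45 levels of 7.76, 3.97 and 38.2 CPM against 13.8, 6.97 and 67.3 CPM in siNTC. In these 5 genes the mean si45 level was 48.2% to 57.0% of control, a smaller difference than that of PLXNA4. PLXNA4 was selected on its low si45 level, so this comparison does not mark it out. Its own mean count lies under 20, so genes as low as PLXNA4 were not among those compared.

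**Figure D4:**
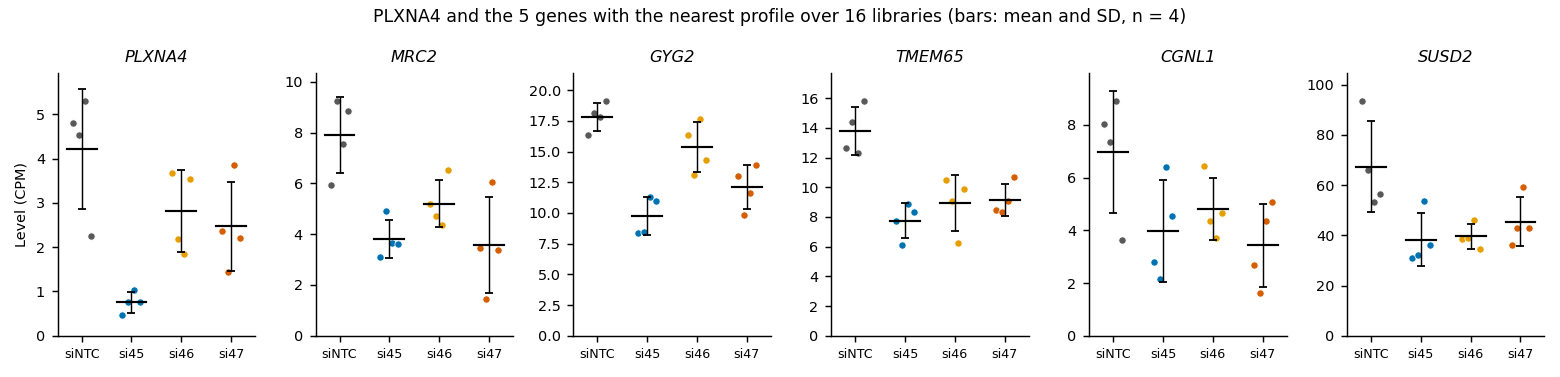
Level in CPM (y axis, linear from 0) of PLXNA4 and the 5 genes with the nearest profile in the 4 groups (x axis); points are libraries and bars the mean and SD of 4. In GYG2, as in PLXNA4, si45 is the lowest group and si46 the nearest to siNTC.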

How the data were processed

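The authors deposited 1 table of raw counts per Ensembl gene, with 1 column per library and no normalization, per the file headers and values. Per the labels, RNA was column-extracted with DNase, libraries came from a 3′ end QuantSeq kit with 15 PCR cycles, and reads were single-end. The submitters' processing notes name STAR 2.7.2b, FastQC 0.11.7, edgeR 3.36.0, limma 3.50.3 and GRCh38. The counter, the annotation, strand use and duplicate handling are not given in the sources used here, so reads of overlapping genes may be mixed. Intervals of fold changes include the spread between replicates. Mitochondrially encoded genes were not analysed here.

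Each column name gave its siRNA and replicate number. Symbols matched 58434 identifiers, and positions came from GENCODE v29. In edgeR 4.0.16 (R 4.3.3), genes were kept by filterByExpr (minimum count 10), normalised with TMM factors, then fitted over all 16 libraries with 4 group means (robust glmQLFit). Tests used glmQLFTest with Benjamini-Hochberg adjustment over 14193 genes and a threshold of 0.05. The SE is the log2 fold change divided by the root of F. p-values measure the spread between biological replicates of 1 cell line. On simulated data for si47 against siNTC (13898 genes), 98 tested genes were changed by 1 on the log2 scale and 96 by 0.5. Of these 74.5% and 34.4% were recovered, with 3 false calls. The simulation held no effect of replicate number. In the data 1382 genes were called for si47, so these shares need not hold there.

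The members and lists were chosen with earlier results of these data known. Named genes were all members, PLXNB3, up to 3 called genes per guidance list with the lowest p, and the 5 profiles nearest to PLXNA4. Replicate pairs within groups differed by 4.51 to 10.6 chi-square per degree of freedom, more than counting noise, so none of these 24 pairs was merged. Deviations from group means correlated over 0.1 for all same-numbered pairs of si45 and si47 (r = 0.116 to 0.235) and for some but not all pairs of the other groups, so by that threshold the numbers were taken to pair si45 and si47, from the data and not the labels. In 4 of the 6 pairs of groups every library of one group correlated best with its own number in the other. Same-numbered correlations were positive in all 6 pairs of groups (lowest r = 0.019). Their mean r was 0.0725 to 0.203, against -0.0676 to -0.0242 for libraries of other numbers. The threshold therefore does not limit a link by number to si45 and si47. The main tests used no block for the replicate number, so they leave out any such link.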

Additional observations from a re-analysis of the deposited data

Results flagged for a closer look

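Each set of 4 libraries was examined for a single value set apart, meaning that the gap to its neighbour took up most of the spread. This held in 5 of 100 sets, and about 1 in 20 is what chance gives. PLXNA2 in si47 replicate 3 was at 34.3 CPM against 39.0 to 39.9 CPM in the other 3. In si45 replicate 3 TPX2 stood at 121 CPM, above the 79.4 to 85.1 CPM of its group. DPYSL5 and EFNA2 in si47 replicate 3 were at 49.1 CPM against 34.4 to 36.1 CPM and at 51.2 CPM against 33.9 to 36.1 CPM. EFNA5 in siNTC replicate 2 was at 167 CPM against 134 to 137 CPM. In 4 of the 5 the library was a replicate 3 of a TPX2 siRNA, and each lay on the side of the control level.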

How the results depend on the processing

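The calls for PLXNA2 and NRP2 in the mean of the 3 siRNAs, and those for PLXNA2 and PLXNB2 under si47, held under every alternative run. The number of relatives called under si45, 1 of 9, was 0 with RLE size factors, with limma-voom and with at least 10 counts in every library. With the replicate number as a block it was 2, since PLXNB2 then passed (adjusted p = 0.0170). The block changed no relative's call for si47 against si45, the pair taken as linked by the threshold above. It raised the genes called in that contrast from 24 to 398. Leaving out 1 library gave 0 to 1 relatives under si45, 0 to 2 under si46, 2 to 4 under si47, 2 to 4 in the mean contrast and 3 to 10 called guidance genes against 8, and the TPX2 difference stayed within -1.98 to -1.78, -2.08 to -1.88 and -2.22 to -2.13. The sign turned for 3 values near 0 that no test called: PLXNA1 in the mean contrast without siNTC replicate 2 (0.012; -0.11 to 0.012 over all libraries), PLXNB1 under si45 without siNTC replicate 4 (-0.02) or si45 replicate 2 (-0.10, up to 0.15), and PLXNC1 under si45 without siNTC replicate 1 (0.12, down to -0.46); the cause was not tested. Genes called in all ran from 127 to 577 for si45, 361 to 1073 for si46, 1188 to 2198 for si47 and 814 to 1817 for the mean over the other settings, the highest with the block, and from 4 to 33 and 4 to 108 for si46 against si45 and si47 against si46. Leaving out 1 library gave 97 to 406, 252 to 579, 932 to 1664 and 629 to 1388 genes for si45, si46, si47 and the mean, and 4 to 7, 10 to 147 and 2 to 23 for si46 against si45, si47 against si45 and si47 against si46, the highest of the last 2 without si47 replicate 3. PLXNA4 was not tested with 10 counts required in every library, since its si45 libraries hold fewer. At 3 to 30 counts per library for PLXNA4 and 6 to 27 for PLXNC1, depth limits what could be detected.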
